A study of Caenorhabditis elegans with 6 samples.

Results

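The 85 genes described here are the hedgehog-related and patched-related genes of Caenorhabditis elegans, chosen from the 20189 protein-coding genes of the count table by their symbols alone. They comprise 59 hedgehog-related genes, namely 10 warthog (wrt), 16 groundhog (grd) and 31 ground-like (grl) genes with hog-1 and qua-1, and 26 patched-related genes, namely ptc-1, ptc-3, 23 ptr genes and che-14. Ribosome footprints, the stretches of mRNA that ribosomes protect, were counted over coding sequence in 6 libraries from whole hermaphrodites at the L4 larval stage. In the CHX group, 3 libraries came from animals kept from the egg for 3 days on plates with 500 µg/ml of cycloheximide, an inhibitor of translation elongation. In the no CHX group, 3 came from animals kept for 2 days on plates without it. All animals were grown at 23 °C and carried rpl-36A(P55Q) over the balancer mIn1, so both groups hold the same heterozygous change in a protein of the large ribosomal subunit, one of a kind known to make ribosomes resist the drug. Culture time went with treatment, and the effects of the drug and of the longer culture cannot be told apart.

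Nematodes lack a clear Hedgehog ligand and the receptor Smoothened, but they have kept and expanded families of secreted proteins related to Hedgehog and of membrane proteins related to its receptor Patched. Warthog, groundhog and ground-like proteins carry a cysteine-rich Wart, Ground or Ground-like domain. Some warthog and groundhog proteins also carry the Hog domain, through which Hedgehog proteins cleave themselves. Patched-related proteins have a sterol-sensing domain and several membrane-spanning segments. In worms many of these genes act in epidermis, glia and other epithelia that build cuticle, loss of several disturbs molting, and many of their mRNAs rise and fall once in each larval molting cycle.

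The libraries held 1601009 to 1901815 reads. The 85 genes together took 0.648%, 0.546% and 0.573% of reads in CHX replicates 1 to 3, against 0.729%, 0.770% and 0.705% in no CHX replicates 1 to 3, so their share was lower in every CHX library. In CPM (reads of a gene scaled to library size, with TMM factors), the hedgehog-related genes summed to 3732 ± 300.5 in CHX and 5364 ± 235 in no CHX, and the patched-related genes to 2085 ± 145 in CHX and 2216 ± 88.6 in no CHX (SD, n = 3 each). The single gene grl-16 averaged 1079 CPM in CHX and 2027 CPM in no CHX, a large part of the hedgehog-related difference. No test was run on sums. Reads were too few to test 34 members (a minimum count of 10 by edgeR's filterByExpr), of which 31 are hedgehog-related, and 51 were tested. A member that passed this filter through only 1 group had to differ, so counts over the 51 are descriptions.

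With CHX, footprints rose on the patched-related genes ptc-1, ptr-13, ptr-8 and ptr-2 and on the groundhog gene grd-3, and the largest falls were on grl-27, wrt-4, ptr-24 and grl-16. Of the 51 tested, 5 rose and 13 fell (called by edgeR at an adjusted p below 0.05, with Benjamini-Hochberg correction over all 10632 genes tested). Called members were 35.3% of those tested, against 42.2% of all tested genes, 9.8% against 22.2% for rises and 25.5% against 20.0% for falls. The median log2 fold change of CHX over no CHX was -0.17 over the 51 members and 0.03 over all tested genes. The groups did not overlap in 20 of the 51 tested members (39.2%), against 52.5% of all tested genes: 8 members lay higher and 12 lower in every CHX library, against 27.7% and 24.7% of all tested genes. With the size factors of DESeq2 in the same test 3 rose and 14 fell. Leaving out no CHX replicate 1 gave 3 rises, leaving out CHX replicate 3 gave 8, and dropping the low-count filter gave 9.

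**Figure D1:**
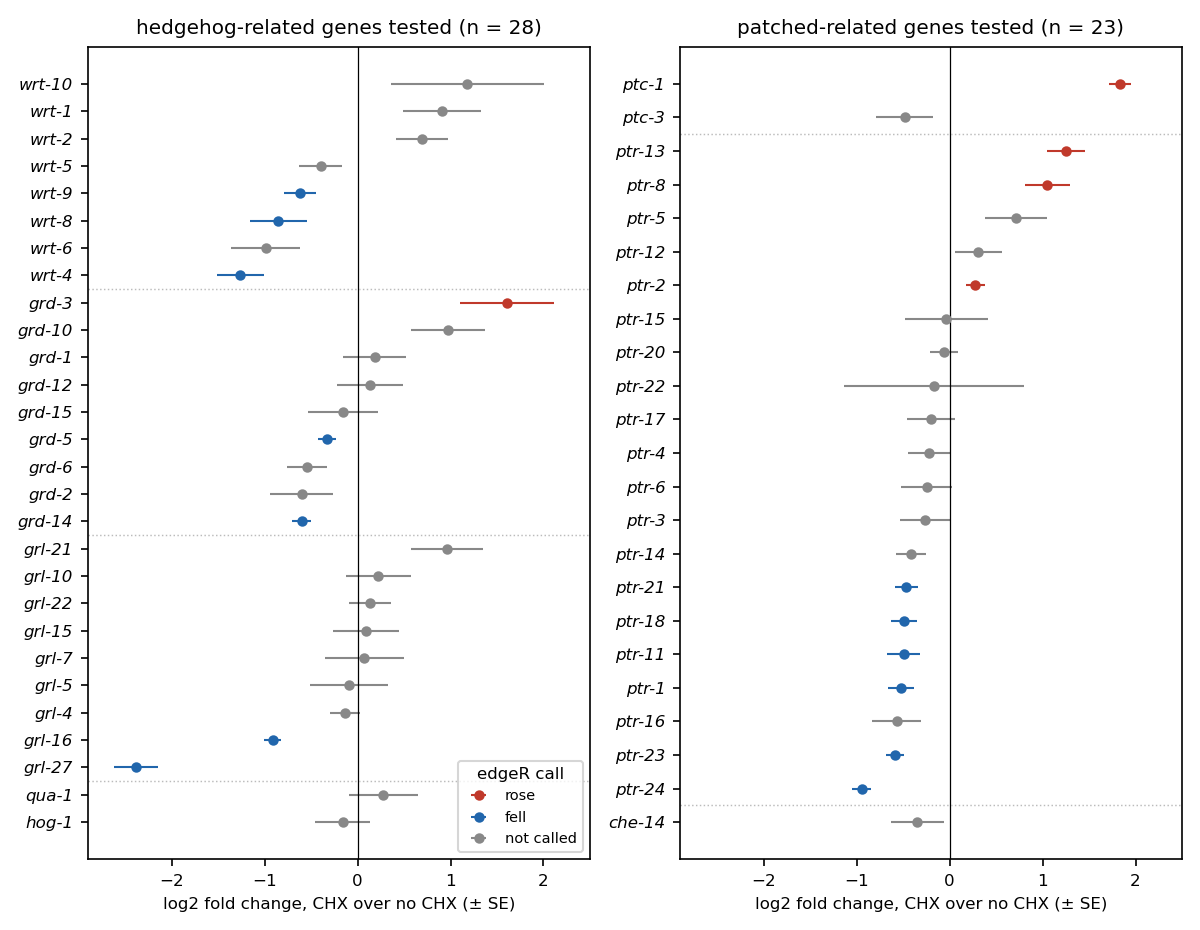
Log2 fold change of CHX over no CHX (x axis, ± SE from edgeR) for the 28 hedgehog-related (left) and 23 patched-related (right) genes tested, grouped by family with dotted lines between families and coloured by call. The 5 called rises lie right of 0 and the 13 called falls left of it, from grl-27 at -2.38 to ptc-1 at 1.83.

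Of the 28 hedgehog-related genes tested, only grd-3 passed as a rise and 7 fell. Among the ground-like genes, which encode secreted proteins with no Hog domain, 2 of 9 tested fell. The gene with the largest change was grl-27 (positions here are the table's, on WBcel235; chromosome V, 3575055 to 3575874, minus strand). CHX replicates 1 to 3 held 10.1, 15.6 and 18.8 CPM of it, against 91.97, 85.2 and 57.3 CPM in no CHX replicates 1 to 3. Every CHX library lay far below every no CHX library, and grl-27 fell by 2.38 on the log2 scale (SE 0.23, edgeR adjusted p = 2.7e-06).

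The ground-like gene with the most reads was grl-16 (chromosome I, 572177 to 575120, minus strand). It had 1068, 989 and 1179 CPM in the CHX libraries, against 2136, 1982 and 1963 CPM in the no CHX libraries. The groups stood clear of each other with little spread, and it fell by 0.91 on the log2 scale (SE 0.092, edgeR adjusted p = 6.0e-07). The family's sum was 1919 ± 158 CPM in CHX and 2862 ± 159 CPM in no CHX. Without grl-16, the other 30 ground-like genes summed to 840 ± 131 CPM in CHX and 835 ± 102 CPM in no CHX (SD, n = 3 each), within the spread of the libraries.

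The other 7 ground-like genes tested did not pass by edgeR (0 at an unadjusted p under 0.05, 0 with DESeq2 and 1 with limma-voom), with log2 fold changes from -0.14 (grl-4) to 0.96 (grl-21). The gene grl-21 was higher in every CHX library, at 139, 87.2 and 231 CPM against 81.8, 81.7 and 72.4 CPM without the drug. It did not pass (edgeR adjusted p = 0.111), and its CHX libraries were spread wide. Leaving out CHX replicate 2 (1.24) or CHX replicate 3 (0.53) brought it past the threshold. The genes grl-5 and grl-7 (GRL-7 is a component of cuticle-related matrix) had log2 fold changes of -0.09 and 0.07, and the position of grl-10 overlaps that of the ribosomal protein gene rpl-39.

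Warthog genes had values on both sides of 0. Of 8 tested, 3 fell and none rose by edgeR (0 rises, with wrt-2 as the only warthog gene above 0 at an unadjusted p under 0.05; 1 passed as a rise with DESeq2 and 1 with limma-voom). The gene wrt-4 (chromosome X, 15752258 to 15757269, minus strand), with the most reads of the family, had 269, 151 and 167 CPM in the CHX libraries, against 386, 477 and 546 CPM in the no CHX libraries. The groups did not overlap, and it fell by 1.26 on the log2 scale (SE 0.25, edgeR adjusted p = 0.0092). Leaving out no CHX replicate 3 ended the call (-1.18, edgeR adjusted p = 0.0544).

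The other fallers were wrt-8 and wrt-9. For wrt-8, with 5.82 ± 0.396 CPM in CHX and 10.6 ± 1.55 CPM in no CHX (SD, n = 3 each), the log2 fold change of -0.85 lost its call in 8 of 12 alternatives, among them DESeq2, no filter on low counts, and the loss of any 1 of the CHX libraries (-0.82, -0.82 and -0.91 without replicates 1 to 3) or of no CHX replicate 1 (-0.79) or 2 (-0.88). For wrt-9, CHX replicate 1 (55.3 CPM) lay just above the lowest no CHX library (55.2 CPM), and the call at -0.62 ended without CHX replicate 3 (-0.52, edgeR adjusted p = 0.0502). In wrt-6, every CHX library lay below every no CHX library (153, 74.7 and 67.5 against 154, 216 and 214 CPM), but CHX replicate 1 came close to the lowest of them. Its log2 fold change was -0.99 (edgeR adjusted p = 0.0918), and without CHX replicate 1 it passed at -1.46. With all 6 libraries wrt-6 passed as a fall with DESeq2 (-1.01, adjusted p = 0.0396) and limma-voom (-1.07, adjusted p = 0.0028).

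The neighbours wrt-1 and wrt-10, on opposite strands of chromosome II with 53 bases between their gene models, had positive values that did not pass. The gene wrt-1 had 100, 54.2 and 44.5 CPM in CHX and 23.5, 48.0 and 33.7 CPM in no CHX, so the groups overlapped (log2 fold change 0.91, edgeR adjusted p = 0.142; 1.14 and called without CHX replicate 3). For wrt-10 there were 71, 30 and 64 reads in CHX replicates 1 to 3, against 0, 35 and 35 reads in no CHX replicates 1 to 3. Its log2 fold change was 1.18, and 0.60 without no CHX replicate 1, where it had no read, and neither value passed. In wrt-1 and wrt-2, too, no CHX replicate 1 was the lowest of all libraries. The value of wrt-2, 0.70, passed without CHX replicate 3 (0.86) or no CHX replicate 2 (0.95), and that of wrt-5, -0.39, without no CHX replicate 3 (-0.63).

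Of 9 groundhog genes tested, 1 rose and 2 fell. The riser, grd-3 (chromosome IV, 3439655 to 3440453, plus strand), had 27.4, 69.1 and 28.3 CPM in the CHX libraries, against 16.5, 8.0 and 15.7 CPM in the no CHX libraries. All CHX values were higher, with replicate 2 far above the other two, and the log2 fold change was 1.61 (SE 0.51, edgeR adjusted p = 0.0451). The call ended without no CHX replicate 1 (1.74), 2 (1.29) or 3 (1.71), with the size factors of DESeq2 (1.58) and with the replicate number as a block (1.55), and adjusted p-values in these fits ran from 0.0509 to 0.157.

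This gene stands between grd-13 and grd-10, all on the plus strand with gaps of 151 and 601 bases. The gene grd-10 was higher in every CHX library (6.15, 14.9 and 7.33 CPM against 5.07, 4.57 and 4.49 CPM), with CHX replicate 2 again the highest, and did not pass (log2 fold change 0.97, edgeR adjusted p = 0.0557; 1.20 and called without CHX replicate 1). With 8 reads in each no CHX library, grd-10 passed the filter through the CHX group alone, so a higher CHX level was favoured. Below the filter, grd-13 had 17, 20 and 5 reads in CHX and 2, 5 and 9 in no CHX. Without the filter on low counts grd-13 and grd-10 both passed, at 1.32 (edgeR adjusted p = 0.0123) and 0.96 (edgeR adjusted p = 0.0473). That fit shifted edgeR adjusted p-values widely at near-equal fold changes. For ptc-1 they went from 2.5e-09 to 1.1e-53, and for ptr-2 from 0.0404 to 0.0863. Its calls are therefore no added support.

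The fallers were grd-14 and grd-5. With the most reads of the family, grd-14 (chromosome X, 8499664 to 8501037, plus strand) had 334, 369 and 429 CPM in the CHX libraries, against 623, 564 and 531 CPM in the no CHX libraries. The groups did not overlap, and the log2 fold change was -0.60 (SE 0.11, edgeR adjusted p = 2.0e-04). The gene grd-5 averaged 290 ± 25.6 CPM in CHX and 366 ± 12.4 CPM in no CHX (SD, n = 3 each; -0.33, edgeR adjusted p = 0.0107). In grd-6, no CHX replicate 3 fell inside the CHX range (262, 313 and 347 against 557, 467 and 319 CPM). Its value of -0.54 did not pass (edgeR adjusted p = 0.0799), and it did without that library (-0.78). On all 6 libraries, DESeq2 (-0.57, adjusted p = 0.0088) and limma-voom (-0.51, adjusted p = 0.0281) called grd-6 as a fall. The edgeR fit that kept low-count genes called it too (-0.56, edgeR adjusted p = 7.5e-06), but the shift of p-values in that fit makes this no added support.

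Neither hedgehog-related gene outside these families was called (0 at an unadjusted p under 0.05 by edgeR, 0 with DESeq2 and 0 with limma-voom). The gene qua-1 (quahog), which is needed for molting, had 277, 192 and 120 CPM in CHX and 126, 206 and 153 CPM in no CHX (log2 fold change 0.28, edgeR adjusted p = 0.605). The value for hog-1 was -0.16 (edgeR adjusted p = 0.697). In both genes the groups overlapped and the CHX libraries alone spanned more than the no CHX libraries.

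**Figure D2:**
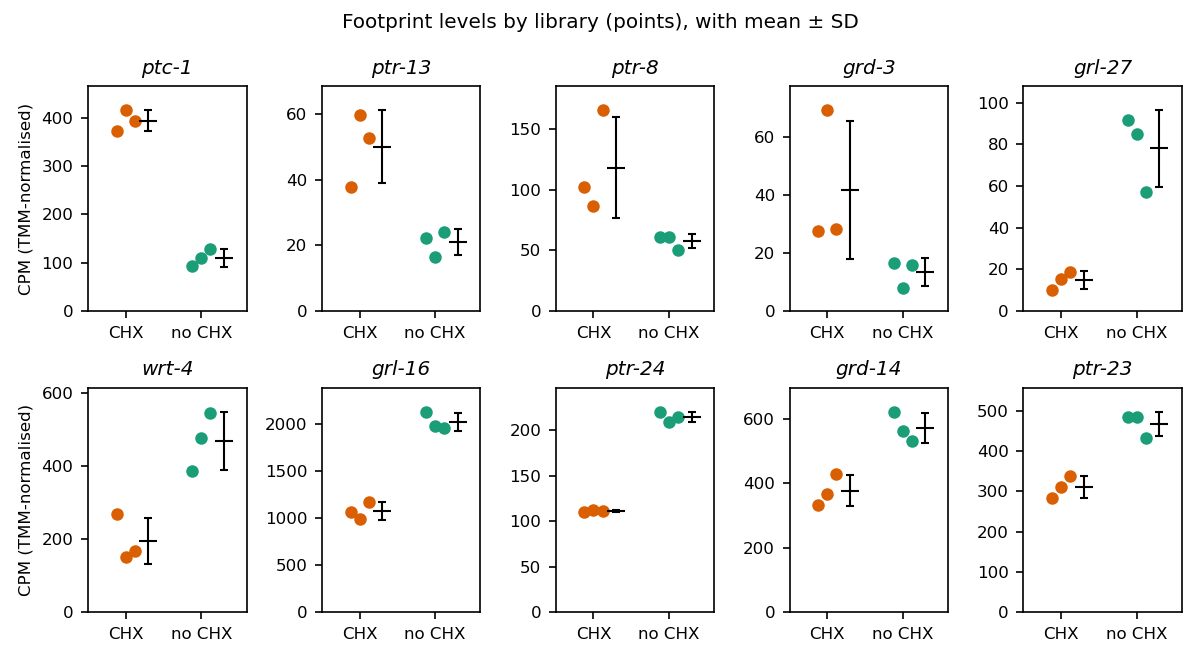
CPM (y axis, TMM-normalised, from 0) of 10 members in each CHX (left) and no CHX (right) library, with the mean ± SD of 3 libraries beside the points. The CHX points lie wholly above the no CHX points for ptc-1, ptr-13, ptr-8 and grd-3 and wholly below them for the other 6.

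Among the patched-related genes, 23 of 26 were tested, and 4 rose and 6 fell. The largest change was in ptc-1 (plus strand of chromosome II, from 7893229 to 7900510), a Patched homologue known for its role in cytokinesis of the germline syncytium. It had 373, 417 and 394 CPM in the CHX libraries, against 92.6, 109 and 129 CPM in the no CHX libraries. The lowest CHX library was well above the highest no CHX library, and the rise was 3.57-fold (log2 fold change 1.83, SE 0.12, edgeR adjusted p = 2.5e-09; 1.69 to 1.92 over 12 alternatives).

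Germline genes moved in the same comparison. All 14 oocyte markers listed rose, with summed levels of 6211 to 6994 CPM in CHX and 711 to 935 CPM in no CHX and none at 0. Of 9 sperm markers tested 6 fell, and the 10 listed summed to 181 to 212 CPM in CHX and 355 to 391 CPM in no CHX. Some of these markers, such as cav-1 (7 reads in no CHX) and spe-44 (9 reads in CHX), passed the filter through 1 group alone. The part of germline genes in the ptc-1 result was not tested. In whole animals more cells of a type and more RNA per cell cannot be told apart. For comparison, the other Patched homologue, ptc-3, which acts in osmotic and sterol balance of somatic epithelia, did not pass. It had 242, 132 and 116 CPM in CHX and 219, 254 and 210 CPM in no CHX (log2 fold change -0.48, edgeR adjusted p = 0.269). Only CHX replicate 1 lay within the no CHX range, and without it ptc-3 fell (-0.88, edgeR adjusted p = 6.3e-05). Leaving out the library that overlaps favours such a call. With all 6 libraries limma-voom called ptc-3 as a fall (-0.55, adjusted p = 0.044) and DESeq2 did not (-0.51, adjusted p = 0.06). Whether ptc-1 and ptc-3 differ in their change was not tested.

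The ptr genes encode the nematode-expanded branch of the Patched family, most with roles known only from reduced function, such as defects in molting and growth. Of 20 tested, 3 rose and 6 fell. The gene ptr-13 (minus strand of chromosome II, from 11157094 to 11162481) had 38, 59.8 and 52.9 CPM in the CHX libraries, against 22.2, 16.6 and 24.1 CPM in the no CHX libraries. The groups were apart, and it rose by 1.25 on the log2 scale (SE 0.20, edgeR adjusted p = 9.5e-05).

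The gene ptr-8 (chromosome II, 10889279 to 10893288, plus strand) had 102, 86.5 and 165 CPM in the CHX libraries, against 60.9, 60.6 and 50.5 CPM in the no CHX libraries. All CHX values were higher, most of all in replicate 3, and the log2 fold change was 1.05 (SE 0.24, edgeR adjusted p = 0.0077; 0.92 with an adjusted p of 0.0738 without no CHX replicate 3). The third riser, ptr-2, had a small change (169 ± 8.02 CPM in CHX and 139 ± 4.6 CPM in no CHX, SD, n = 3 each), with a log2 value of 0.28 (edgeR adjusted p = 0.0404). Its call ended in 10 of 12 alternatives, among them the loss of any 1 library, with values of 0.22 to 0.31.

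All 6 ptr genes that fell did so by less than 2-fold. The largest of these falls was in ptr-24 (chromosome X, 13338052 to 13348110, plus strand), with 111, 113 and 112 CPM in the CHX libraries, against 221, 209 and 215 CPM in the no CHX libraries. Replicates were nearly level within each group, and the log2 fold change was -0.95 (SE 0.10, edgeR adjusted p = 1.4e-06). With the most reads of the family, ptr-23 (chromosome I, 14909240 to 14913083, plus strand), whose protein acts with the mucin-like OSM-8 in the epidermal response to osmotic stress, had 284, 310 and 339 CPM in the CHX libraries and 485, 486 and 432 CPM in the no CHX libraries. It fell by 0.59 on the log2 scale (SE 0.099, edgeR adjusted p = 1.4e-04), with no overlap.

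The remaining 4 fallers had values close to each other. The log2 fold changes were -0.46 for ptr-21, -0.52 for ptr-1, -0.49 for ptr-18 and -0.49 for ptr-11. The first 2 kept their call in 12 of 12 alternatives. The call of ptr-18 ended without CHX replicate 2 (-0.38) or 3 (-0.42), and that of ptr-11 with DESeq2 and without CHX replicate 2 (-0.33), CHX replicate 3 (-0.44), no CHX replicate 1 (-0.49) or no CHX replicate 2 (-0.50). The gene models of ptr-1 and ptr-18 overlap those of spas-1 and Y38F1A.4 on the genome, and whether reads were counted by strand is not given in the sources used here.

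Of the other 11 ptr genes tested, none passed by edgeR (2 at a p under 0.05 before adjustment; DESeq2 called 0 and limma-voom 1), with log2 fold changes from -0.57 (ptr-16) to 0.71 (ptr-5). The gene ptr-4, needed for the organisation of the precuticle, had -0.22 (edgeR adjusted p = 0.483). Leaving out a no CHX library brought 4 past the threshold, ptr-14 (-0.57) without replicate 1, ptr-5 (1.05) without replicate 2, and ptr-3 (-0.55) and ptr-22 without replicate 3. In ptr-22, no CHX replicate 3 held 60 reads against 6 in each of the other no CHX libraries, and CHX libraries had 26, 17 and 23. Its value of -0.17 became 1.72 (edgeR adjusted p = 0.0019) without that library. The Dispatched-like gene che-14, needed for apical secretion in epidermis and glia, did not pass (-0.35, edgeR adjusted p = 0.347).

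**Figure D3:**
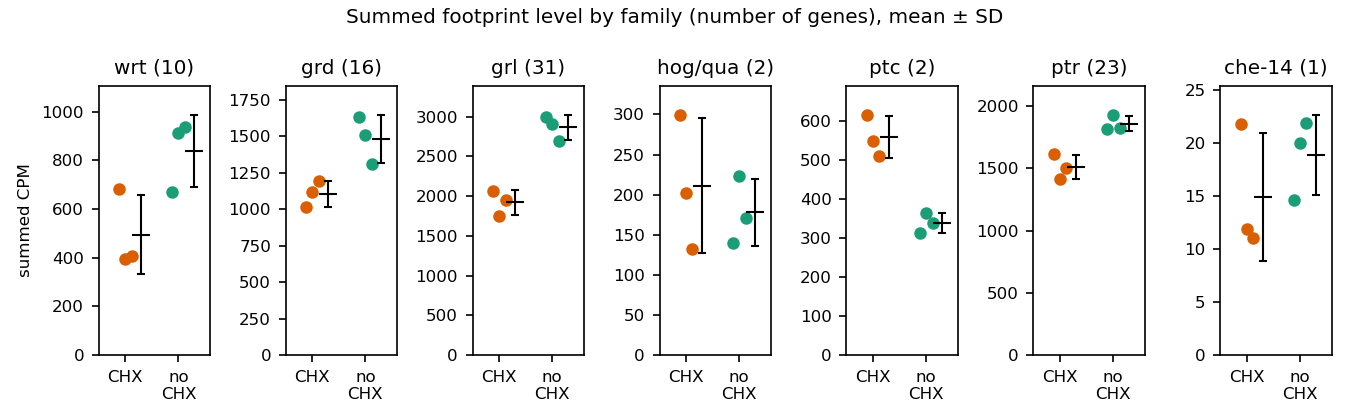
Summed CPM (y axis, from 0) of each family in every CHX (left) and no CHX (right) library, with the number of genes in parentheses and the mean ± SD of 3 libraries beside the points. The grd, grl and ptr sums are lower and the ptc sum higher in every CHX library, while the other sums overlap.

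Summed by family, every CHX library lay below every no CHX library for grd (1014 to 1191 against 1308 to 1633 CPM), grl (1748 to 2060 against 2686 to 2996 CPM) and ptr genes (1419 to 1613 against 1818 to 1931 CPM). Without grl-16 the ground-like sums were level, at a mean of 840 CPM in CHX and 835 CPM in no CHX. The ptc pair was higher in every CHX library (509 to 615 against 312 to 364 CPM). Within the pair only ptc-1 had a higher mean in CHX (394.5 against 110 CPM), and that of ptc-3 was lower (163 against 228 CPM). The warthog sum overlapped through CHX replicate 1, with 682, 394 and 408 CPM in CHX and 670, 913 and 936 CPM in no CHX.

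Replicates of the CHX group differed among themselves over many members. Of the 34 tested members with a mean of at least 25 CPM (a limit chosen after the data were seen), 12 differed at least 2-fold between the highest and lowest CHX library, which is 35.3%, against 2.2% of all 6175 tested genes at that level. In the no CHX group, 2 of the 34 did (5.88%, against 2.64%). Of the 13 molting and precuticle effectors at that level, 6 did in CHX (46.2%) and 5 in no CHX (38.5%). With limits of 10 to 50 CPM the members' share was 32.1% to 35.6% in CHX and 3.03% to 11.1% in no CHX. Of those 12 members, 10 were highest in CHX replicate 1, namely grd-1, grl-5, grl-7, grl-15, ptc-3, ptr-6, ptr-16, qua-1, wrt-1 and wrt-6. The largest ratios were 2.93 for grl-5, with 192, 123 and 65.4 CPM in CHX replicates 1 to 3, and 2.7 for grl-7, with 314, 231 and 116 CPM.

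Over all 51 tested members CHX replicate 1 was the highest CHX library in 29 (56.9%), against 30.7% of all tested genes. In the no CHX group, replicate 2 was the lowest in 6 of 51 (11.8%, against 31.8% of all genes). The median biological coefficient of variation, edgeR's estimate of the spread between libraries beyond counting, was 16.4% over the members and 10.5% over all tested genes. The 20 molting and precuticle effectors summed to 2177, 1403 and 1446 CPM in CHX replicates 1 to 3. In no CHX replicates 1 to 3 they summed to 1288, 1738 and 1529 CPM. CHX replicate 1 also had the highest CHX sum of epidermal (743, 620 and 654 CPM) and pharyngeal markers (731, 611 and 548 CPM). The sterol-sensing, clock, glial, excretory, vulval and sperm lists shared this, but the adult cuticle and oocyte lists did not. The part of these lists in the spread of the members was not tested. Without CHX replicate 1, 8 further members passed: ptc-3 (-0.88), wrt-6 (-1.46), grd-2 (-1.22), ptr-16 (-0.99), ptr-6 (-0.62), ptr-14 (-0.57) and ptr-4 (-0.52) as falls and grd-10 (1.20) as a rise. In the same fit wrt-8 (-0.82) and ptr-2 (0.24) lost their call, so the members' falls then numbered 19 and their rises 5. Over all tested genes, falls went from 2123 with all libraries to 1947 in that fit, and rises from 2364 to 2193.

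**Figure D4:**
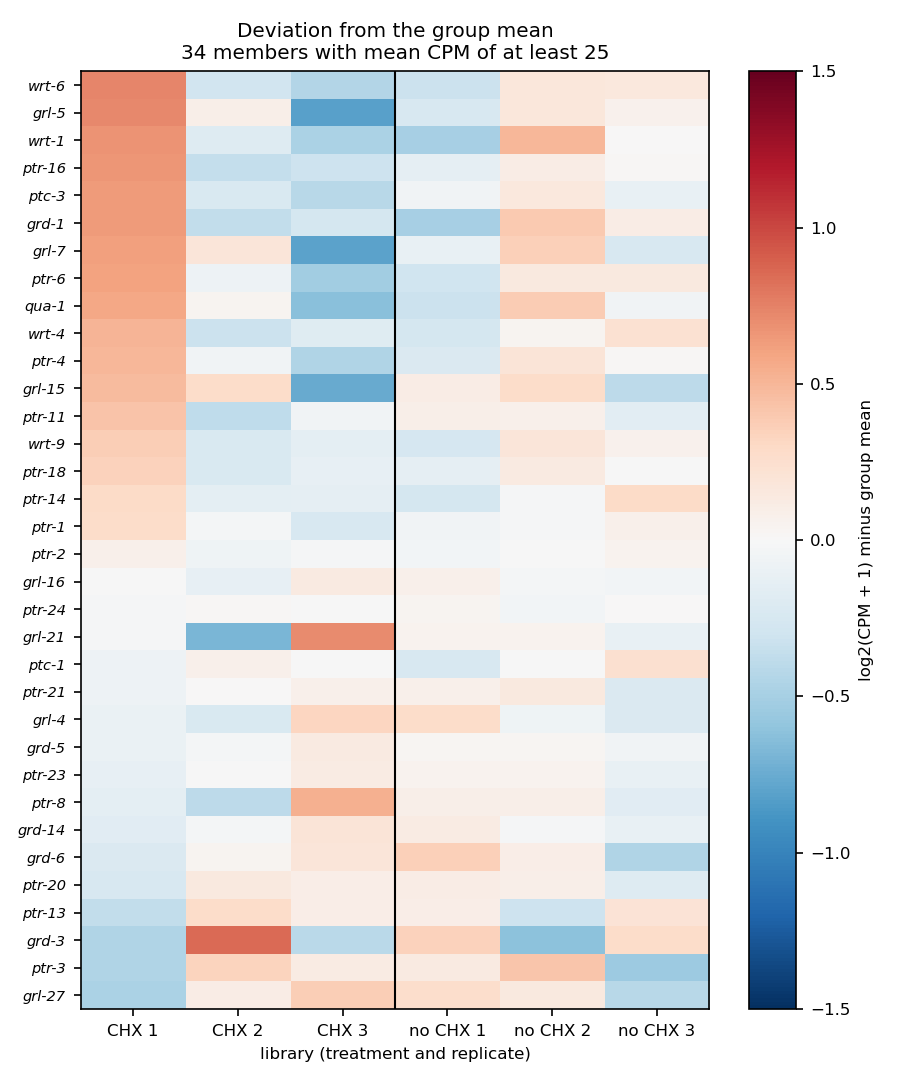
Log2(CPM + 1) of each library minus the mean of its group (colour, ending at 1.5 in size) for the 34 members with a mean of at least 25 CPM, ordered by CHX replicate 1. Many members at the top are high in CHX replicate 1 and low in CHX replicate 3, among them wrt-6, grl-5, grl-7 and qua-1.

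Chromosome V holds 32 of the 85 members (37.6%, against 24.7% of all genes in the table) and chromosome III holds 6 (7.06%, against 13.3%). Gene models of 16 members overlap that of another protein-coding gene in the table. Of 12 neighbouring pairs less than 20000 bases apart, 3 had both genes tested, and in 1 of these both were called: ptr-21 and grl-16 both fell.

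The 34 untested members had at most 58 reads in all 6 libraries. No read was found for 4 of them (grd-8, grl-9, grl-19 and grl-29), 12 had 1 to 3 reads and 8 had 4 to 10. Reads were found in CHX only for 7 and in no CHX only for 5, all in small numbers. The most were the 4 CHX reads of grl-26. Set against a floor of 3 reads over the no CHX group, they give a ratio of 1.28. That ratio leaves out counting error in the 4 reads themselves, so it is no lower bound. Without the filter, grl-26 did not pass (log2 fold change 3.51, SE 1.87, edgeR adjusted p = 0.152). Besides grd-13, ptr-19 did pass in that fit (31 reads in CHX and 12 in no CHX, log2 fold change 1.27, edgeR adjusted p = 0.0432). The shift of p-values given above for that fit limits this call too.

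Other genes are known to work beside these families. Of 10 sterol-sensing and hedgehog accessory genes, 8 were tested and 1 fell, with a median of -0.23. The faller was tra-1 (-0.35, edgeR adjusted p = 0.0248), the worm Gli homologue, which acts in sex determination; its call ended with DESeq2 (-0.38) and without CHX replicate 1 (-0.30), CHX replicate 3 (-0.36) or no CHX replicate 2 (-0.35). The gene with the most reads was lrp-1, for a megalin homologue needed in molting, with 869, 557 and 488 CPM in CHX and 675, 880 and 903 CPM in no CHX (-0.36, edgeR adjusted p = 0.313). Without CHX replicate 1, lrp-1 (-0.65, edgeR adjusted p = 8.7e-04) and the acyltransferase homologue hhat-1 (-0.72, edgeR adjusted p = 0.0177; -0.29 with all libraries) fell. CHX replicate 1 was the highest CHX library of both lrp-1 and hhat-1, so leaving it out favours such falls. The patched-related gene daf-6, which shapes glial channels and does not carry a ptr symbol, differed by less than its error (edgeR adjusted p = 0.994), and the Niemann-Pick homologues ncr-1 and ncr-2 did not pass.

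Of 11 molting clock regulators tested, 1 rose and 2 fell. The nuclear receptor gene nhr-23, which drives larval molts, had 8.94, 9.34 and 11.5 CPM in CHX and 25.4, 16 and 18.5 CPM in no CHX (-0.99, SE 0.27, edgeR adjusted p = 0.0063), with no overlap. The calls of grh-1 (0.57) and blmp-1 (-0.47) ended in 9 and 6 of 12 alternatives. Without 1 of the libraries CHX 1 or 2 or no CHX 1 to 3, the values of grh-1 were 0.47 to 0.57, and without 1 of CHX 2 or 3 or no CHX 1 or 2, those of blmp-1 were -0.50 to -0.33.

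Of 19 molting and precuticle effectors tested, 4 rose and 3 fell. The risers were the matrix genes dpy-6 (2.32), fbn-1 (2.16) and let-653 (2.04) and the ecdysis protease gene nas-37 (1.23), whose call ended without CHX replicate 1 (1.10) or without no CHX replicate 1 (1.24), 2 (1.33) or 3 (1.01). In no CHX replicates 1 to 3, dpy-6 had 0, 4 and 5 reads and fbn-1 had 2, 8 and 9. There let-653 had 6, 8 and 6 reads. These matrix genes passed the filter through the CHX group alone and had to differ, so their rises are descriptions. The fallers were nas-36 (-0.84), nekl-2 (-0.60, lost without CHX replicate 1 at -0.44) and acn-1 (-0.45, lost in 5 of 12 alternatives, among them without CHX replicate 2 at -0.32 or 3 at -0.37, or no CHX replicate 2 at -0.44 or 3 at -0.47).

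Among markers of the tissues known to express the members, 4 had no read in at least 1 library: egl-17 (2 reads in all, both in no CHX replicate 3), ceh-22 (3 reads in all), lin-48 and mls-2 (7 reads each). Of 8 epidermal markers 1 rose, grh-1, whose call ended in 9 of 12 alternatives as given above, and their sum was 620 to 743 CPM in CHX and 564 to 633 CPM in no CHX. The 4 glial markers tested had log2 fold changes of 0.10 to 0.54 that did not pass, and the 8 listed summed to 73.8 to 89.96 CPM in CHX and 64.7 to 67.9 CPM in no CHX. Of 6 excretory markers 3 rose, led by the aquaporin gene aqp-8 (1.31), which kept its call in 12 of 12 alternatives. The other 2 lost theirs in 5 of 12. The call of vha-5 (0.30) ended with DESeq2 (0.27) and without CHX replicate 1 (0.25) or no CHX replicate 1 (0.25), 2 (0.26) or 3 (0.26). That of clh-3 (0.79) ended with DESeq2 (0.76) and without CHX replicate 1 (0.69) or 3 (0.69) or no CHX replicate 1 (0.68) or 3 (0.64). Of 4 pharyngeal and arcade cell markers tested 3 rose, of which myo-2 (0.56) lost its call without no CHX replicate 2 (0.47) or 3 (0.44). Of 4 adult cuticle genes 1 rose, col-19 (0.70, edgeR adjusted p = 0.0034), and the 4 vulval markers tested, at -0.55 to 0.72, did not pass. The part of these tissues in the members' changes was not tested.

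**Figure D5:**
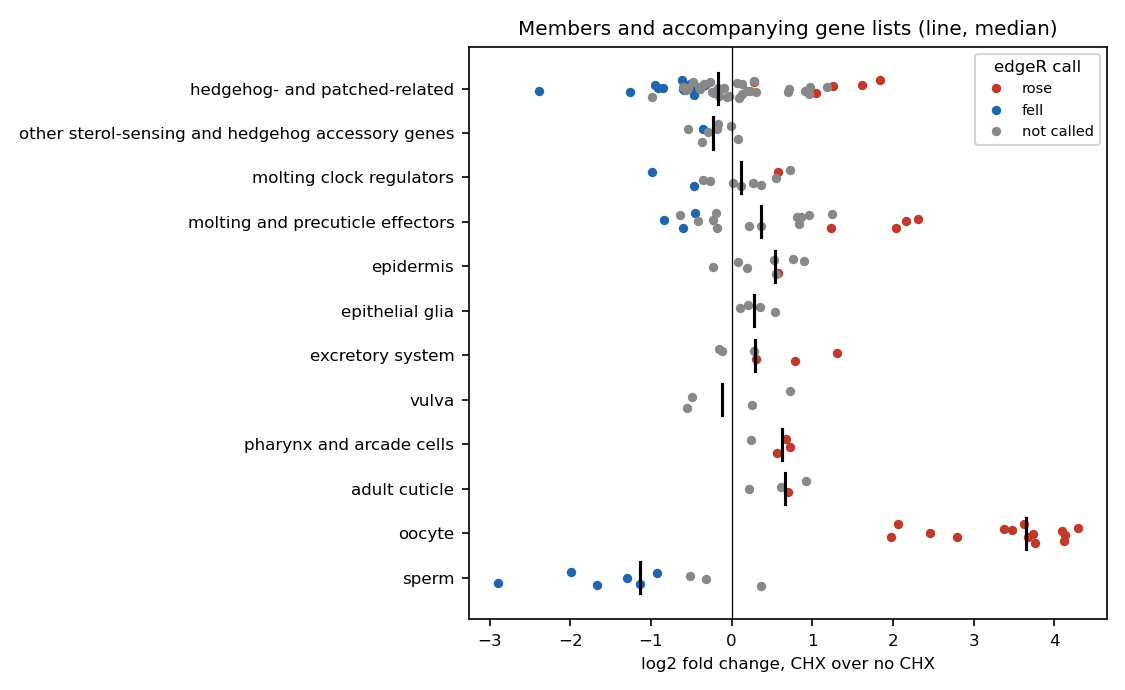
Log2 fold change of CHX over no CHX (x axis) of each tested gene in the members and in 11 accompanying lists, coloured by edgeR call, with a vertical line at each median. The members centre on -0.17, between the oocyte list at 3.65 and the sperm list at -1.14.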

How the data were processed

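Per the labels' protocols, RNA came from ribosomes spun through 34% sucrose, fragments of 26 to 34 nucleotides were selected on a gel, and the D-Plex Small RNA-seq kit was used. Per the file headers, the deposited table gives raw read counts per gene over coding sequence. WBcel235 and DESeq2 appear in the submitters' processing notes. Not given in the sources used here are the aligner and how molecular identifiers, strand and multiple matches were treated, so related genes may share reads. The length column spans introns, so levels were not compared between genes. No sequence is shown.

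The labels do not say whether replicates came from separate cultures, so the error behind each p-value may be technical. No mRNA libraries were used, so footprint changes were not divided into mRNA level and translation. No pair of libraries was near-identical (chi-square per degree of freedom 1.89 to 3.35 within groups). Counts were tested with edgeR 4.0.16 in R 4.3.3 (filterByExpr, minimum count 10; TMM; glmQLFit, robust; glmQLFTest) on 6 libraries with group as the only term. The fit was tested on simulated data.

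Members, lists and tests were chosen with earlier results of these data known. Every called member is named, with values per library for those changed at least 2-fold and for the member with the most reads in each family. Other members given by library, such as ptr-24, were picked with their values in view. The alternatives were DESeq2 size factors, no filter, a minimum mean of 5 CPM, the DESeq2 1.42.0 test, limma 3.58.1 (voom), the replicate number as a block, and leaving out each library. The listed marker snb-9 was not found in the table.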

Additional observations from a re-analysis of the deposited data

How the results depend on the processing

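Of the 18 called members, 10 kept their call in all 12 alternatives (grd-5, grd-14, grl-16, grl-27, ptc-1, ptr-1, ptr-13, ptr-21, ptr-23 and ptr-24). The 5 rises became 3 with DESeq2 size factors, 3 with the replicate block and 9 without the filter on low counts, and ran from 3 to 8 when 1 library was left out. The 13 falls ran from 9 to 19 when 1 library was left out, and from 12 to 17 in the other alternatives. Over all genes, 1654 to 2674 rose and 1689 to 2449 fell across alternatives, within 1.5 times of the 2364 and 2123. The gene ptr-22 turned from -0.17 to 1.72 without no CHX replicate 3, which alone held 60 of its 72 no CHX reads, and ran from -0.68 to 1.72 when 1 library was left out. Same-numbered libraries did not deviate together (correlations of deviations -0.11, -0.08 and -0.08 over all tested genes). With 3 libraries per group, this cannot show whether same-numbered libraries shared a culture or preparation. Under the block 15 of the 18 calls were kept. The causes were not tested. Depth limits the 34 untested members, and the floor of 3 reads covers counting error in the no CHX group alone.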
